A study of Mus musculus with 18 samples.

Results

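To follow how alveolar lung epithelial cells differ before and after growth as transplanted tumors, 6 alveolar tumoroids were compared with 3 alveolar organoids, which together made up 9 of the 18 mouse cultures of the series. The members were chosen by their labels, with earlier results of these data known. The organoids were the Sca1-negative AT2 cultures given Ad-GFP (ESnGFP) or Ad-Cre (ESnCre) and the alveolar subclone of the Sca1-positive BASC culture given Ad-Cre (ESpCreA), none of which had been transplanted. The tumoroids were 3 labelled as of AT2 origin (654T1, 655T1 and 655T2) and 3 from mixed BASC organoids (646T1, 648T1 and 648T3), all given Ad-Cre. The sorting label of the AT2 tumoroids reads NGFR negative, which in the paper marks club cells of the trachea. AT2 cells were sorted there as Sca1 negative. The AT2 origin was therefore taken from the other labels of these tumoroids. The donor cells of all 9 cultures carry the human EGFR T790M/L858R transgene with a CAG promoter and a lox-stop-lox cassette in the Col1a1 locus. It is activated once Cre has removed the stop, so ESnGFP carries the transgene without its activation. Organoid cells were instilled into the trachea of immunocompromised Foxn1 Nu/Nu mice, and cells dissociated from the resulting tumors were grown again in Matrigel with neonatal lung mesenchymal support cells, as the organoids were. The labels give neither the sex nor the age of the donors and hosts. They do not say whether tumoroids whose titles share a number (655T1 with 655T2, 648T1 with 648T3) came from the same mouse. Nor do they say whether replicates are separate animals. In the paper, sorted cells were divided between Ad-GFP and Ad-Cre, so ESnGFP and ESnCre may come from the same sort. The p values may therefore measure partly technical spread.

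AT2 cells make surfactant and renew the alveolar epithelium, giving rise to the flat AT1 cells that carry out gas exchange. Bronchioalveolar stem cells (BASCs), which sit where the terminal bronchiole meets the alveoli, can give rise to both airway and alveolar cells. Activating EGFR mutations signal through the RAS and ERK pathway, and adenocarcinomas that carry them usually keep features of AT2 cells.

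The organoid libraries were made with TruSeq chemistry and read on a HiSeq, and the tumoroid libraries were made and read on the BGI DNBSEQ platform, so transplantation and platform cannot be told apart. Total counts per library were 45022265 to 97191624 in the organoids and 15327265 to 23000685 in the tumoroids. Without correction the median log2 fold change rose from -0.45 in the genes of lowest GC content to 0.44 in those of highest GC content, and fell from 0.35 in the shortest transcripts to -0.27 in the longest. Offsets for GC content and length, fitted in each library, narrowed the medians to between -0.01 and 0.08. Tumoroid 655T2 stood apart from the other tumoroids. On the first principal component (42.2% of the variance) it lay at -48.6, the organoids between -84.1 and -67.1 and the other 5 tumoroids between 0.3 and 109.2. On the second (26%) it lay at -117.7 and the other 5 tumoroids between -69.8 and 28.4. Its summed level of fibroblast and smooth muscle genes was 25500 CPM (counts scaled to a common library size) against 2450 to 13800 in the others. Some of the results that change without it are marked, but not all. In the fit without 655T2, 1 AT2 gene, 1 club and airway secretory gene and 2 basal genes were called higher. There, 1 lung epithelial transcription factor was called lower. In these bulk samples, fewer cells of a type and less RNA per cell cannot be told apart.

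**Figure D1:**
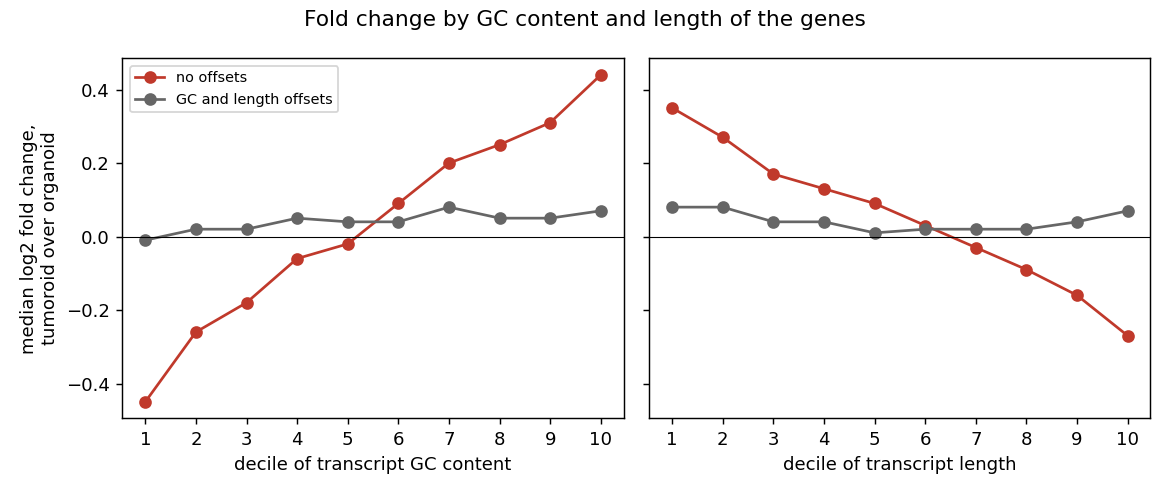
Median log2 fold change of tumoroids over organoids (vertical axis, log2) in each of 10 equal groups of the genes tested, ordered by transcript GC content (left) or transcript length (right). The red line without offsets climbs from -0.45 to 0.44 with GC content and falls from 0.35 to -0.27 with length, and the gray line with offsets for both stays near 0.

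The markers given for these cultures split in their behavior. Sftpc, the surfactant protein C gene that defines AT2 cells (chr14:70520949-70524081, minus strand, GRCm38), was read at 26410, 25890 and 28210 CPM in ESnGFP, ESnCre and ESpCreA, and at 9378, 20550 and 65690 CPM at the lowest, median and highest tumoroid. Both groups thus held the gene among their most abundant transcripts, with the tumoroids on either side of the organoids. A single marker in bulk samples does not show whether a culture was purely alveolar. The fold change was 0.05 ± 0.64 on the log2 scale (SE, adjusted p = 0.96 by edgeR's quasi-likelihood test), and its sign depended on the processing. The 2 lowest tumoroids were 648T1 and 655T2, the tumoroids with the highest fibroblast sums.

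Gata4 and Tfap2b, both low in the organoids, stood among the 10 largest rises. Gata4 encodes a zinc-finger transcription factor of heart, gut and liver endoderm (chr14:63198922-63271692, minus strand). It was read at 0.12, 0.239 and 0.0916 CPM in the organoids and at 0.928, 3.96, 9.01, 15.7, 27.4 and 54.7 CPM in tumoroids 654T1, 655T2, 646T1, 648T1, 648T3 and 655T1. Every tumoroid was above every organoid, but the tumoroids themselves spread widely and 654T1 held little. The log2 fold change was 6.87 ± 1.42 (adjusted p = 0.00945), and 6.70 (adjusted p = 0.013) with the GC and length offsets. Without ESnGFP it was no longer called (adjusted p = 0.0526), and the highest adjusted p over its alternatives was 0.202, in AT2 cultures alone.

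Tfap2b encodes AP-2 beta, a transcription factor of neural crest and kidney development (chr1:19208914-19238576, plus strand). Its levels were 0.442, 0.79 and 3.05 CPM in the organoids and 26.4, 103 and 150 CPM at the lowest, median and highest tumoroid. All 6 tumoroids were thus far above the 3 organoids, the lowest being 655T2. The log2 fold change was 6.06 ± 0.88 (adjusted p = 0.00216). Of the 7 GATA and AP-2 genes tested, 2 were called higher (Gata4 and Tfap2b) and 1 lower. The gene that fell was Tfap2c, another AP-2 factor, which went from 0.683, 1.95 and 1.83 CPM to at most 0.191 CPM (log2 fold change -3.70, adjusted p = 0.00197).

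In the tumoroid grown from an autochthonous tumor, Tfap2b was at 1.59 TPM (a length-scaled share of the transcripts) and Gata4 at 0.25. The bronchiolar tumoroid held 2.01 TPM of Tfap2b and 2.52 of Gata4, and the bronchiolar BASC organoid 0.2 and 0.01. On the same scale the 6 alveolar tumoroids held 11.2 to 55.3 TPM of Tfap2b and 0.5 to 27.6 of Gata4. Tfap2b was therefore lower in the 2 tumoroids of other kinds than in any alveolar tumoroid, while for Gata4 the bronchiolar value fell inside the alveolar range. These are single cultures, so no test was made.

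**Figure D2:**
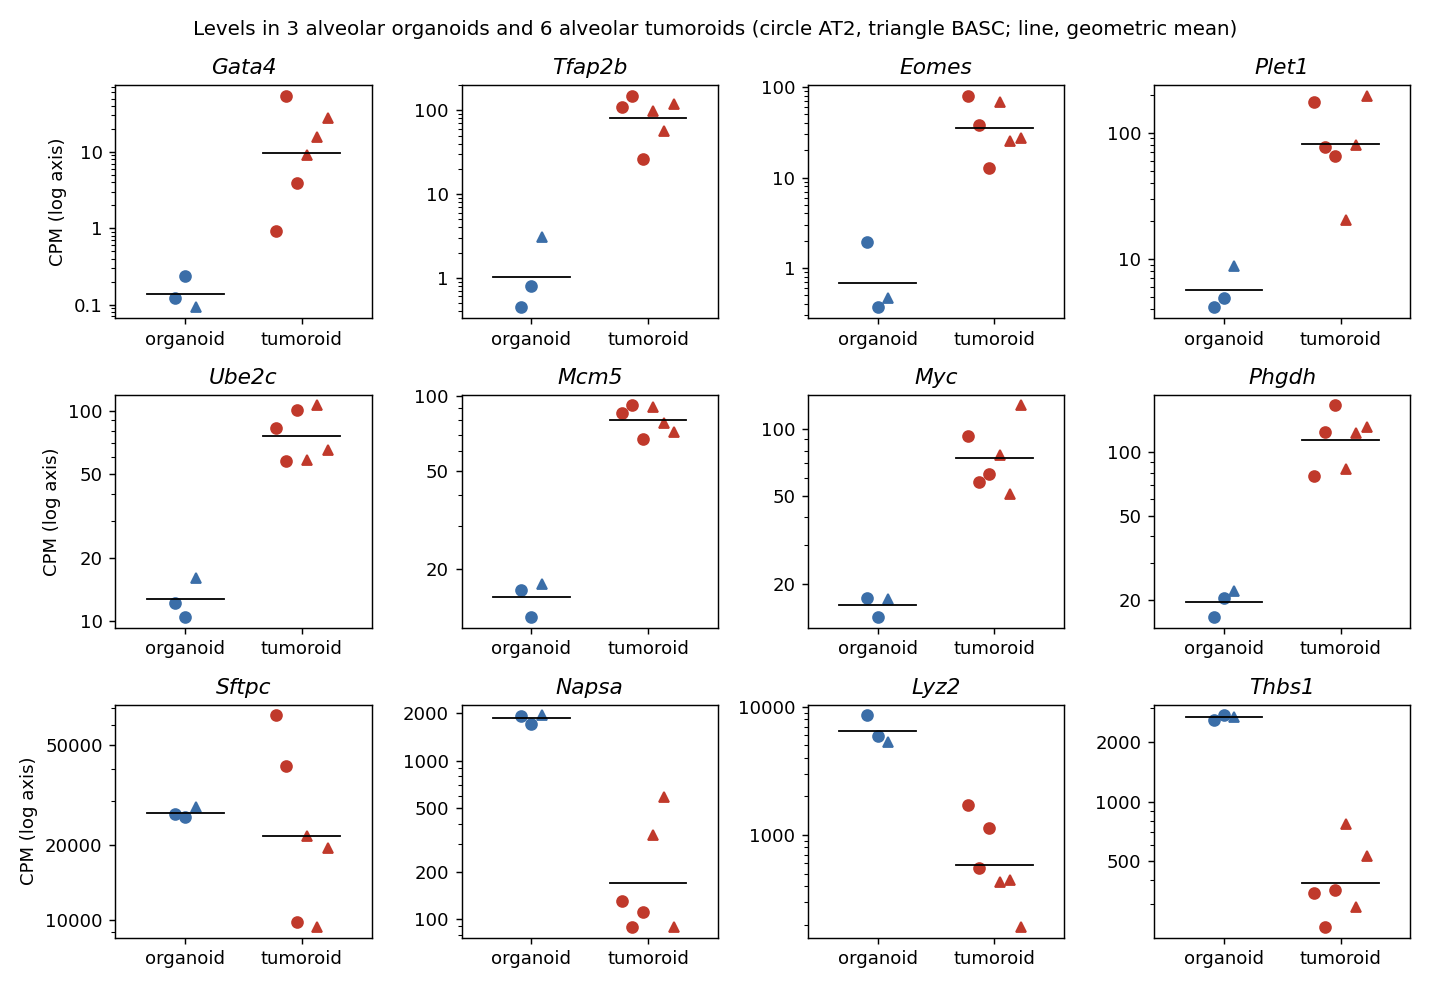
CPM (log axis) of 12 genes in the 3 alveolar organoids (blue) and 6 alveolar tumoroids (red), with circles for AT2 and triangles for BASC cultures and a line at the geometric mean of each group. The tumoroids lie above every organoid for the 8 genes of the upper rows and below every organoid for Napsa, Lyz2 and Thbs1, while for Sftpc they lie on both sides.

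Of 16260 genes tested, 2060 (12.7%) were called higher and 1475 (9.07%) lower in the tumoroids at an adjusted p below 0.05. The counts given for gene lists below are to be read beside these shares. DESeq2 called 2980 (18.3%) higher and 2014 (12.4%) lower. With the GC and length offsets 1693 (10.4%) were higher and 956 (5.88%) lower, and 2187 of the called genes remained called in the same direction. The higher genes made up 58.3% of the calls without the offsets and 63.9% with them. In 2540 genes (15.6%) every tumoroid was above every organoid, and in 2265 (13.9%) every tumoroid was below.

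**Figure D3:**
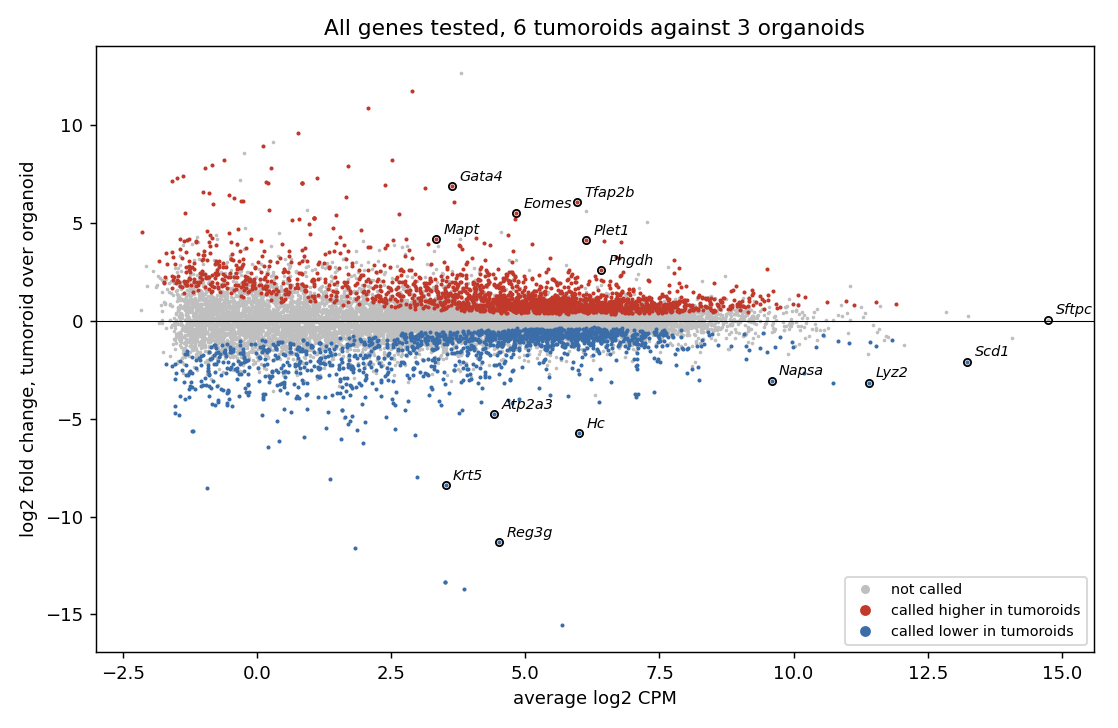
Log2 fold change of tumoroids over organoids (vertical axis) against the average log2 CPM (horizontal axis) for the 16260 genes tested, with called genes in red (higher, 2060) and blue (lower, 1475). Points at the extremes at the left are genes with few or no reads in one group, whose fitted fold depends on the prior count.

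The other genes among the 10 largest rises had varied known roles. Eomes, a T-box factor of the trophoblast and the early mesoderm and of T and NK cells, was at 1.92, 0.364 and 0.458 CPM in the organoids and at 12.8, 32.6 and 81 CPM at the lowest, median and highest tumoroid. The 2 groups did not overlap, and the log2 fold change was 5.51 ± 0.89 (adjusted p = 0.00336). Plet1, a surface protein of the placenta and of epithelial progenitors, rose from 4.11, 4.89 and 8.82 CPM to between 20.4 and 197 CPM (4.11 ± 0.74, adjusted p = 0.00541). Mapt, which encodes the microtubule-binding protein tau, rose from at most 0.937 CPM to between 6.75 and 25.8 CPM (4.17 ± 0.52, adjusted p = 0.00113). Kcnh1, a voltage-gated potassium channel gene, was at 0.229 to 0.312 CPM in the organoids and 6.24 to 56.9 CPM in the tumoroids, with 654T1 the highest. Dusp9, an ERK phosphatase gene, rose from at most 1.79 CPM to between 4.27 and 31.9 CPM, and Pllp, a membrane protein gene of myelin and epithelia, from at most 3.46 to at least 3.65 CPM. Olfm5 and Ly6g6c also rose, with log2 fold changes of 6.78 and 3.97, and their lowest tumoroid in each case was 655T2. Neither was called once any 1 organoid was left out, and Pllp was not called without ESnGFP or ESnCre.

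Eomes in the autochthonous tumoroid lay inside the range of the alveolar tumoroids. It was at 8.03 TPM in the autochthonous and 2.48 TPM in the bronchiolar tumoroid, beside 6.82 to 36.6 TPM in the alveolar tumoroids and 0.19 to 0.98 TPM in the alveolar organoids. Plet1 was already at 38.6 TPM in the bronchiolar BASC organoid, above all 3 alveolar organoids (4.6 to 8.7 TPM), so the level in the alveolar tumoroids (23.4 to 204 TPM) was not above that of every organoid culture. The TPM of the autochthonous tumoroid was 1.53.

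The genes of cell division gave the broadest rise. Of 42 S phase genes tested, 36 were called higher and 0 lower, with 1 lower at an unadjusted p below 0.05 (a threshold that 20.1% of all genes passed as higher and 15.6% as lower) and 0 lower by DESeq2. Their median log2 fold change was 1.44 beside 0.045 over all genes tested. Of 52 G2 and M phase genes, 42 rose and 0 fell, the 0 holding also at an unadjusted p below 0.05 and by DESeq2 (44 higher by each), with a median of 1.64. With the GC and length offsets the counts were 39 and 47, and without 655T2 they were 38 and 43. The summed S phase level was 629 to 730 CPM in the organoids and 1520 to 1910 CPM in the tumoroids, and no tumoroid lay near the organoids.

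Mcm5 encodes a subunit of the helicase that opens DNA at replication origins. Its levels were 16.4, 12.8 and 17.4 CPM in the organoids and 67.2, 81.7 and 92 CPM at the lowest, median and highest tumoroid. Both groups were narrow and did not overlap, with a log2 fold change of 2.38 ± 0.17 (adjusted p = 0.000181). Uhrf1, which carries DNA methylation through replication, rose by 2.49 ± 0.33 on the log2 scale, and Dscc1, which helps load the replication clamp, by 2.41 ± 0.39. Ube2c, the ubiquitin-conjugating enzyme of the anaphase-promoting complex, went from 12.2, 10.4 and 15.9 CPM to between 57.6 and 106 CPM (2.61 ± 0.28, adjusted p = 0.000626). Cdca8 (borealin, of the chromosomal passenger complex) and Aurka (Aurora A kinase) rose by 2.52 and 2.41, again with no overlap. Foxm1, the transcription factor that drives G2 and M phase genes, was at 15.6, 12.7 and 14.8 CPM in the organoids and 46.9 to 96.5 CPM in the tumoroids (2.11 ± 0.26, adjusted p = 0.00108).

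The promoters of the tested S phase and G2 and M phase genes, called or not, were read from the RefSeq table (GRCm38.p6). These lists were written by hand, so the shares below describe the lists and not the rise. The windows cover the 250 bases before the transcription start. Promoters of 46 of the 52 G2 and M phase genes and 30 of the 42 S phase genes were in the table. The CHR element (TTTGAA) was present on either strand in 41.2% of the 51 G2 and M phase promoters and 18.2% of the 33 S phase promoters, beside 10.9% of the 14714 promoters of all genes tested. The CCAAT box (CCAAT) was in 74.5% and 66.7%, beside 34.7% of all. The E2F site (TTTNGCGC) was in 7.84% and 18.2%, beside 1.79% of all, and the E-box (CACGTG) in 5.88% and 6.06%, beside 7.89%. The AP-2 site (GCCNNNGGC) was in 25.5% and 21.2%, beside 19.9% of all. Both strands were searched, and a CCAAT box can overlap a second one on the other strand. A match of letters is a description and not a measured binding site.

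The promoters of the 3 named mitotic genes show these arrangements, with CCAAT boxes and CHR elements in capitals. That of Ube2c (chr2:164769679-164769928, plus strand) held 6 CCAAT boxes, 2 of which overlap, and a CHR element 29 bases before the start. Those of Cdca8 (chr4:124936918-124937167, minus strand) and Aurka (chr2:172370571-172370820, minus strand) held 3 and 2 CCAAT boxes and no match to the CHR letters.
Ube2c: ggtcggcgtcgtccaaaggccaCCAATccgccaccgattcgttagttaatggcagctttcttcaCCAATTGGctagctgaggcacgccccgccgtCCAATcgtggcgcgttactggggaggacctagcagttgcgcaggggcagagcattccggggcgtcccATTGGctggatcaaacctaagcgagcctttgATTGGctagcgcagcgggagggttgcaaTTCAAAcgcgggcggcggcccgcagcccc
Cdca8: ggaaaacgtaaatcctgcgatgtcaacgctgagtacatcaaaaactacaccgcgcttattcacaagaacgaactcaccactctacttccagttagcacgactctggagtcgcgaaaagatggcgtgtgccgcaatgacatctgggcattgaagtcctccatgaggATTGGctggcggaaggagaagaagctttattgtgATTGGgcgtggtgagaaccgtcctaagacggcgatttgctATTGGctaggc
Aurka: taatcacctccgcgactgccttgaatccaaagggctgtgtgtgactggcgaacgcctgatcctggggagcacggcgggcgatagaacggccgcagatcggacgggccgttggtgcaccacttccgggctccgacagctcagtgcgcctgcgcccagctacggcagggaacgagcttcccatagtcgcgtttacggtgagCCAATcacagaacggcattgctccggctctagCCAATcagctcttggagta

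For the S phase genes, the promoter of Mcm5 (chr8:75109259-75109508, plus strand) held 2 overlapping E2F sites on opposite strands, 153 and 149 bases before the start, and 1 of the 2 promoters of Uhrf1 (chr17:56304063-56304312, plus strand) held a single site 185 bases before it. The E2F sites are in capitals.
Mcm5: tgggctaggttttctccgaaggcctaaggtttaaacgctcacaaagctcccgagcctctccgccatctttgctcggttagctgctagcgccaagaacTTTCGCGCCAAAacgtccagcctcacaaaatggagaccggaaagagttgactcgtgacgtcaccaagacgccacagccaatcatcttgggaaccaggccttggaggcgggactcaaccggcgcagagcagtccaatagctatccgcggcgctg
Uhrf1: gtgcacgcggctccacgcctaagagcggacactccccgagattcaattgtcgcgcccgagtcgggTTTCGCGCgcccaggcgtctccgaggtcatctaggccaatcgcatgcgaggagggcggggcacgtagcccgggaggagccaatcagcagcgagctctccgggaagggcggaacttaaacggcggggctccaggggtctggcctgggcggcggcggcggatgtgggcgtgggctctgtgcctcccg

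The genes that supply growing cells rose beside those of division. Of 50 MYC target and ribosome biogenesis genes, 36 rose and 0 fell (41 and 0 both at an unadjusted p below 0.05 and by DESeq2, median log2 fold change 0.89). Of 27 polyamine and nucleotide synthesis genes, 18 rose and 0 fell (19 and 0 by both of the other counts, median 0.92). Myc itself was at 17.2, 14.1 and 17.2 CPM in the organoids and 51, 69.6 and 128 CPM at the lowest, median and highest tumoroid. The lowest tumoroid thus held more than any organoid, and the log2 fold change was 2.27 ± 0.31 (adjusted p = 0.0017). In TPM the gene was at 93.8 in the autochthonous and 112 in the bronchiolar tumoroid, but also at 82 in the bronchiolar BASC organoid, beside 13.5 to 16.3 in the alveolar organoids and 48.4 to 123 in the alveolar tumoroids. Of the 13 genes of the MYC, MAX and MXD network, Mxd3 also rose (2.12) and Mga, a repressive MAX partner, fell by 0.80 on the log2 scale, a call that was lost with the GC and length offsets (-0.29, adjusted p = 0.306). The 2 calls higher were 15.4% of the network and the 1 lower 7.69%, beside 12.7% and 9.07% of all genes tested.

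Cad, the enzyme that starts pyrimidine synthesis, rose from 37.7, 32.1 and 23.1 CPM to between 82.7 and 170 CPM (2.04 ± 0.27). Rrm2, the small subunit of ribonucleotide reductase, and Tk1, thymidine kinase, rose by 1.93 and 1.79. Among ribosome biogenesis genes, Fbl (fibrillarin, which methylates ribosomal RNA) rose from at most 28.6 to at least 62.7 CPM (1.49 ± 0.14, adjusted p = 0.00048). Srm, spermidine synthase, rose from at most 18.4 to at least 38.9 CPM (1.54 ± 0.16). Both increases were smaller than those of the division genes but came with narrow groups. Phgdh, the first enzyme of serine synthesis, was at 16.6, 20.3 and 22.1 CPM in the organoids and 77.2 to 167 CPM in the tumoroids (2.59 ± 0.28, adjusted p = 0.000631). It led a list of 27 serine, one-carbon and ATF4 target genes, of which 10 rose, Asns among them (asparagine synthetase, 1.25), and 1 fell, the stress gene Nupr1 (-1.56). Without ESnCre or ESpCreA 6 rose, and without ESpCreA Nupr1 was not called.

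Genes of DNA repair and of the cell cycle machinery followed. Of 32 homologous recombination and Fanconi genes, 17 rose and 0 fell (20 and 0 at an unadjusted p below 0.05, 19 and 0 by DESeq2, median 0.86). The count was 10 without ESnGFP, 8 without ESnCre, 9 without ESpCreA and 11 without 648T1. Exo1 (an exonuclease that resects DNA ends), Rad54b and Eme1 rose by 2.35, 2.13 and 2.12. Of 20 genes of cyclin D, CDK4/6, RB and the INK4 inhibitors, 8 rose and 3 fell. The counts depended on the organoids, with 2 and 1 without ESnGFP, 1 and 0 without ESnCre and 3 and 0 without ESpCreA. Ccne1, cyclin E1, rose by 1.32, and E2f2 by 1.10, the latter a call that the offsets removed (adjusted p = 0.0595). Cdkn2a, which encodes the inhibitors p16 INK4a and p19 ARF, was at 51.4, 54 and 44.5 CPM in the organoids and at 59.3 to 321 CPM in the tumoroids. Its lowest tumoroid, 654T1, was close to the organoids. The log2 fold change was 2.07 ± 0.49 (adjusted p = 0.0169) and fell to 1.59 (adjusted p = 0.0552) with the offsets. Cdkn2a and E2f2 were not called once any 1 organoid was left out, E2f2 also not without 655T1, 646T1 or 648T3, and Ccne1 not without ESnCre.

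Trp53, the gene of p53, was also higher, at 97.3 to 201 CPM beside 50.6, 59.8 and 54.3 CPM (1.31 ± 0.25, adjusted p = 0.00637). Of 26 p53 target genes, with Trp53 counted among them, 3 were called higher and 5 lower (median -0.19). The shares were 11.5% and 19.2%, beside 12.7% and 9.07% of all genes tested. Beside Trp53, Gtse1 (1.61) and Ckap2 (1.10), both genes of the mitotic spindle, rose, while Ccng1 and Trp53inp1 fell by 1.33 and 1.34. The decreases of the latter pair were not called with the offsets (adjusted p = 0.253 and 0.141), under which 1 gene of the list was lower and 3 were higher. Leaving out any 1 organoid gave 3 higher and 2 lower, with neither Ccng1 nor Trp53inp1 among the calls, and Ccng1 was also not called without 655T1, 655T2, 648T1 or 648T3.

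Of the 12 genes of the Polycomb repressive complex 2 (PRC2), which methylates histone H3 at lysine 27, 4 were called higher and 0 lower, with 1 lower at an unadjusted p below 0.05 and 0 by DESeq2. Ezh2, its catalytic subunit, was at 21.1, 20 and 27.5 CPM in the organoids and 45.8, 61.2 and 89 CPM at the lowest, median and highest tumoroid (1.51 ± 0.23, adjusted p = 0.00275). Rbbp7 and Rbbp4, the histone-binding subunits, rose by 0.79 and 0.56. Epop, an accessory subunit, rose by 1.06, a call that was lost with the offsets (0.54, adjusted p = 0.243) and without 654T1, 655T1, 646T1 or 648T3. Leaving out any 1 organoid left 2 genes called, without Epop and Rbbp4.

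**Figure D4:**
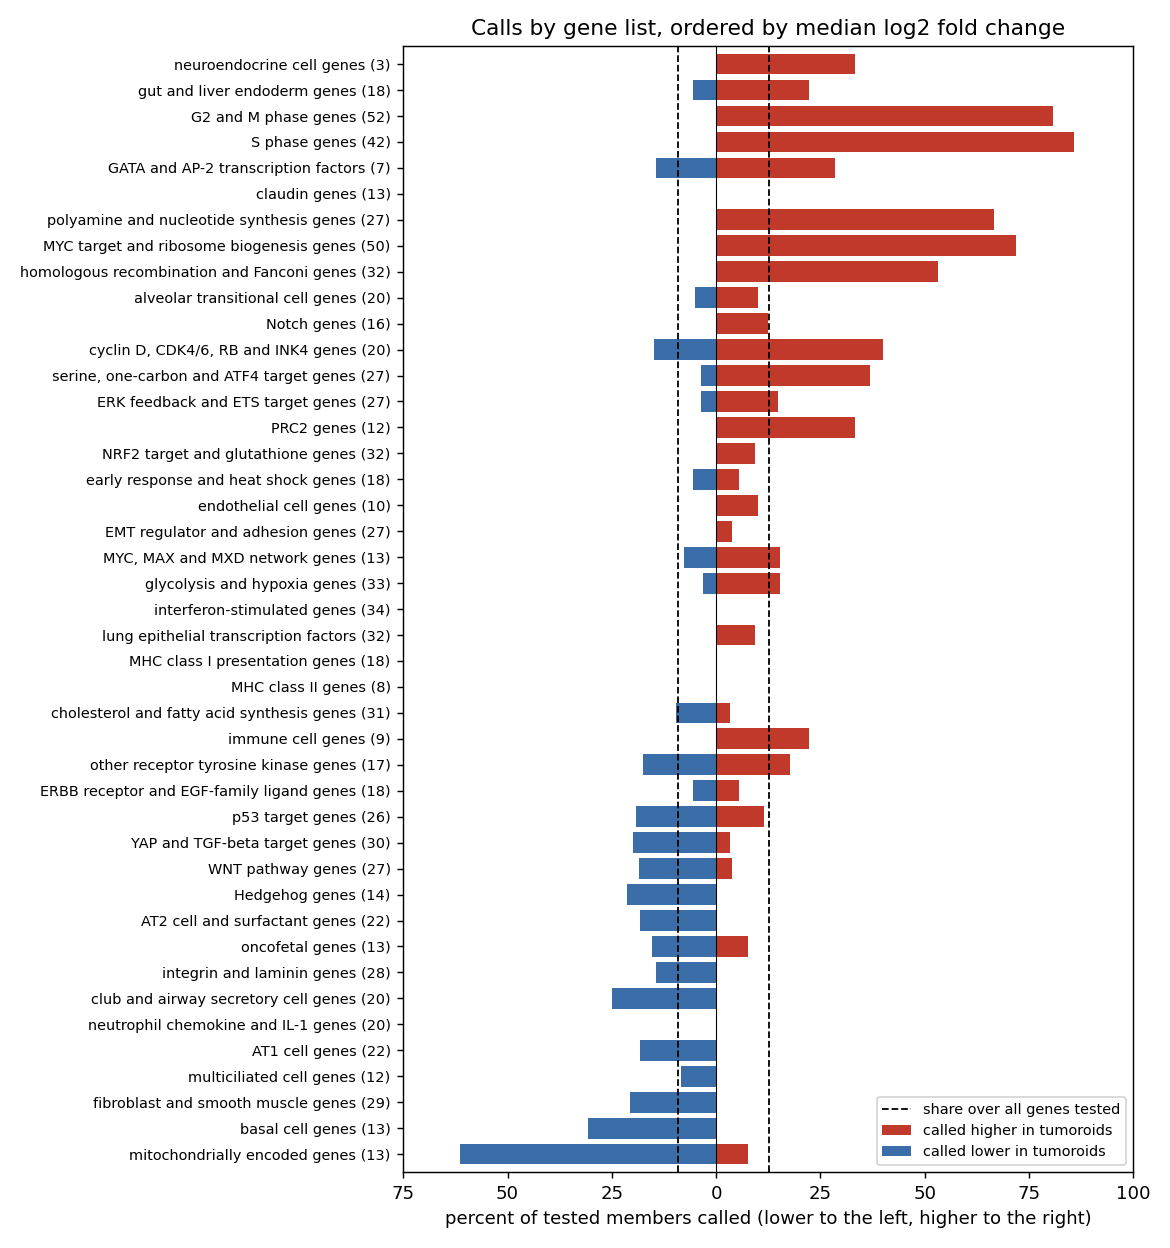
Percent of the tested members of 43 gene lists (number tested in parentheses) that were called higher (red, right) or lower (blue, left) in the tumoroids, with dashed lines at the shares over all genes tested (12.7% and 9.07%). The division, biosynthesis and repair lists extend far to the right, and the mitochondrially encoded and basal cell lists furthest to the left.

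AT2 genes fell in part. Of 22 AT2 cell and surfactant genes, 0 were called higher and 4 lower, with 0 higher at an unadjusted p below 0.05 and by DESeq2 (median -0.31). In the fit 16 of the 22 were lower. The summed list was lowest in 655T2 and 648T1 (21500 and 26700 CPM beside 43700 to 103000 CPM in the other tumoroids), the tumoroids with the highest fibroblast sums, and with the fibroblast list as a covariate 11 genes were called lower (median -1.33). Napsa, the protease that processes surfactant protein B, was at 1926, 1710 and 1939 CPM in the organoids and 89.2, 120 and 588 CPM at the lowest, median and highest tumoroid. No tumoroid reached a level close to the organoids, and the log2 fold change was -3.05 ± 0.61 (adjusted p = 0.00819). Lyz2, the lysozyme gene of AT2 and myeloid cells, was at 8588, 5931 and 5342 CPM beside 191, 497 and 1722 CPM (-3.15 ± 0.58, adjusted p = 0.00605). Hc, which encodes complement C5, went from 244, 185 and 131 CPM to between 0.248 and 11.5 CPM (-5.75 ± 0.93, adjusted p = 0.00337). Lamp3, a lamellar body protein, fell by 1.33 on the log2 scale (adjusted p = 0.0398), which was not called with the offsets (-0.80, adjusted p = 0.21), once any 1 organoid was left out, or without 655T1, 648T1 or 648T3.

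In the autochthonous tumoroid these genes stood at other levels than in the alveolar tumoroids. Lyz2 was at 8280 TPM there, beside 7120 to 12300 TPM in the organoids and 261 to 2000 TPM in the alveolar tumoroids. Hc was at 73.5 TPM, beside 68.4 to 101 TPM and 0.21 to 9.31 TPM. Napsa was at 746 TPM, beside 2050 to 2290 TPM and 90.7 to 688 TPM. The values of the autochthonous tumoroid for Lyz2 and Hc lay inside the organoid range, and its value for Napsa lay between the groups. It is a single culture, and no test was made.

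Other AT2 genes did not pass the test. Sftpb was at 9455, 8041 and 8443 CPM in the organoids and 3528 to 16000 CPM in the tumoroids (0.25 ± 0.42, adjusted p = 0.714). Slc34a2, the phosphate transporter of AT2 cells, was below the organoids in every tumoroid (1164 to 3720 beside 4313 to 5940 CPM) without passing the test (-0.98, adjusted p = 0.107). Of 32 lung epithelial transcription factors, 3 were called higher (Foxm1, Etv4 and Foxp4), a share of 9.38% beside 12.7% of all genes tested. The count called lower was 0, with 1 lower at an unadjusted p below 0.05 and 0 by DESeq2. Nkx2-1, the master regulator of lung identity, was at 240, 339 and 341 CPM in the organoids and 77.6, 275 and 445 CPM at the lowest, median and highest tumoroid (-0.11, adjusted p = 0.883). Its lowest value came from 655T2. Over all alternatives the log2 fold change of Nkx2-1 ran from -1.21 to 0.087, and 1 alternative called it lower. With the fibroblast list as a covariate, 5 genes of the list were called higher and 7 lower (median -0.52). Etv4, an ETS factor downstream of FGF and ERK signaling, rose by 1.24 ± 0.17 (adjusted p = 0.0019) and Foxp4 by 1.08 ± 0.20 (adjusted p = 0.00549). Sox9, a factor of distal lung tips, was at 5.47 to 63.6 CPM beside 6.69 to 11.6 CPM and did not pass the test (1.99, adjusted p = 0.0623). Cebpa, a factor of AT2 maturation, was at 177 to 850 CPM beside 348 to 433 CPM (0.58, adjusted p = 0.356).

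Of 22 AT1 cell genes 4 fell and 0 rose, also 0 at an unadjusted p below 0.05 and by DESeq2 (median -0.62). Rtkn2, a marker gene of AT1 cells, went from 42.4, 63 and 73.5 CPM to between 2.6 and 12.2 CPM (-3.15 ± 0.46, adjusted p = 0.00219), and Igfbp2 and Pmp22 fell by 2.08 and 1.62 on the log2 scale. The list count was 1 without ESnCre and 1 without ESpCreA, where neither of the latter pair was called, and with the fibroblast list as a covariate it was 10. Pmp22 was also not called without ESnGFP, 654T1, 655T1, 646T1 or 648T3. Of 20 genes of the transitional state between AT2 and AT1 cells, 2 rose (the keratin Krt18, 1.59, and the TWEAK receptor Tnfrsf12a, 0.97) and Nupr1 fell. These were 10% and 5% of the list, beside 12.7% and 9.07% of all genes tested. Both rises lost their call with the offsets (adjusted p = 0.09 and 0.0795) and without ESnGFP or ESnCre, while without 655T2 6 genes rose. Krt18 was called in no fit that left out 1 culture other than 655T2. Of 13 claudin genes 0 were called in either direction, with 5 higher and 0 lower at an unadjusted p below 0.05, 3 higher and 0 lower by DESeq2, and 4 higher without 655T2.

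A few airway and basal cell genes were highest in the BASC organoid and close to 0 in the tumoroids. The summed club and airway secretory list nevertheless overlapped (1620 to 3370 CPM in the organoids and 385 to 2830 CPM in the tumoroids). In the summed basal list the tumoroids lay on both sides of the organoids (508 to 2080 CPM beside 1010 to 1490 CPM). Of the 13 basal genes 4 were higher and 9 lower in the fit. Their median log2 fold change was -0.78, and 0.42 without ESpCreA. Reg3g, an antimicrobial lectin of airway cells, was at 3.59, 3.1 and 198 CPM in ESnGFP, ESnCre and ESpCreA. In the tumoroids it had 3 counts in all, with 4 of the 6 libraries at 0. The organoid level was 2910 times the tumoroid level (95% Poisson interval 995 to 14100, counting error only), but it rests largely on ESpCreA. Krt5, the basal cell keratin, was at 1.55, 6.19 and 94.2 CPM beside at most 0.367 CPM (adjusted p = 0.0045), and Scgb3a2 and Scgb3a1, secretoglobins of club cells, at up to 51 and 25.4 CPM beside at most 0.449 and 0.49 CPM. For Reg3g, Col17a1 and Krt17 DESeq2 gave no adjusted p. In the tracheal organoids and the bronchiolar BASC organoid Krt5 was at 426 to 2060 TPM, far above the 71 TPM of ESpCreA. Of 20 club and airway secretory cell genes, 5 fell and 0 rose, with 1 higher at an unadjusted p below 0.05 and 0 by DESeq2, and of 13 basal cell genes 4 fell and 0 rose (0 by both). The basal genes Col17a1 and Krt17 were high only in ESpCreA, and without that culture neither was called (log2 fold changes of -1.49 and -0.042), which left 1 basal gene lower. Without 646T1 the count was also 1, with neither called, and without 655T1, 648T1 or 648T3 it was 2. Krt17 was in addition not called without 654T1, 655T1, 648T1 or 648T3.

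**Figure D5:**
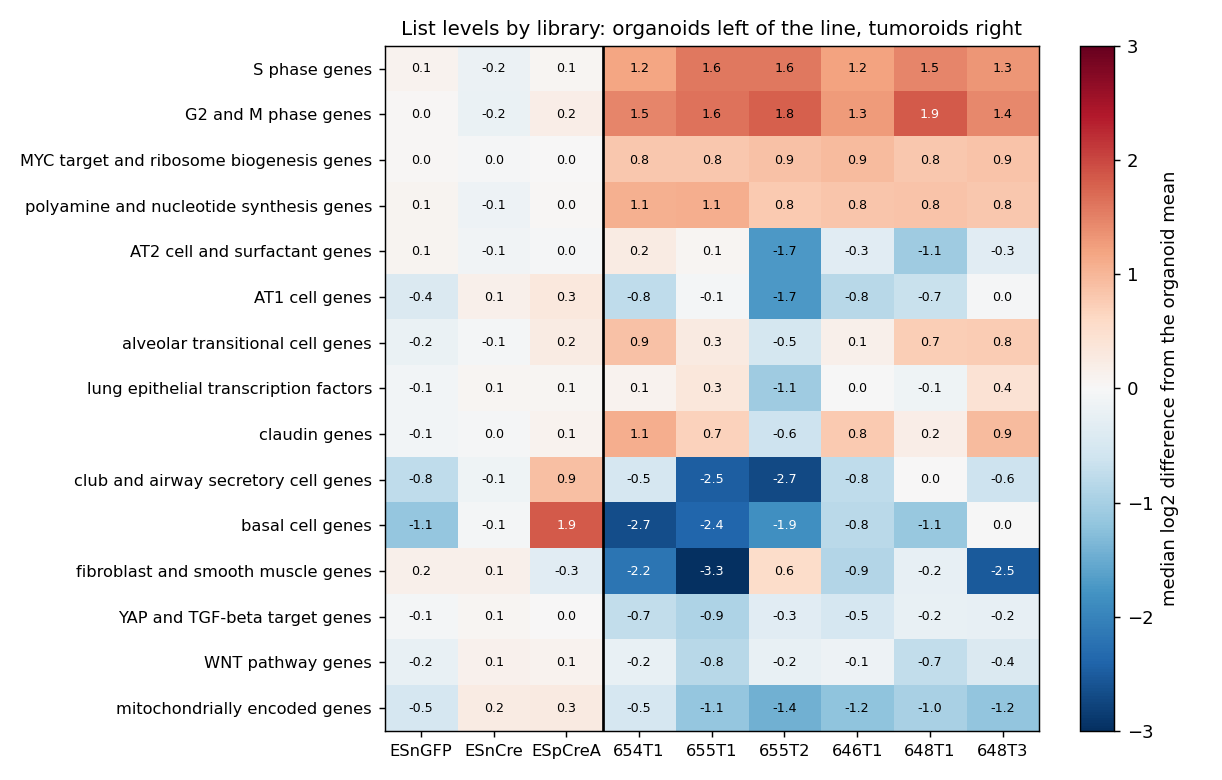
Median log2 difference of 15 gene lists from the organoid mean, by list (rows) and library (columns), with the 3 organoids left of the line and the 6 tumoroids right. S phase and G2 and M phase genes lie 1.18 to 1.85 above the organoid mean in every tumoroid, while the fibroblast list ranges from 0.56 in 655T2 to -3.33 in 655T1.

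Genes of the support cells moved unevenly. Of 29 fibroblast and smooth muscle genes, 6 fell and 0 rose, also 0 higher at an unadjusted p below 0.05 and by DESeq2 (median -0.73), without 655T2 11 fell (median -1.32), and without ESnCre 3 fell, Postn not among them. Lum, a collagen-binding proteoglycan, was at 442, 165 and 98.2 CPM in the organoids and at 9.88, 24.8 and 54.9 CPM at the lowest, median and highest tumoroid (-3.11 ± 0.55, adjusted p = 0.00489). Postn, periostin, and Mfap5, a microfibril protein, fell by 3.00 and 3.40 on the log2 scale. Col1a1, the main fibrillar collagen and the site of the transgene, was at 1728, 2474 and 1335 CPM beside 294, 688 and 4345 CPM, the highest in 655T2 (-0.47, adjusted p = 0.717). Tumoroid 655T2, the highest in Col1a1, held less Lum, Postn and Mfap5 than every organoid. Several of the largest decreases were also genes of mesenchymal cells. Fmod (fibromodulin) fell by 4.70, Igf1 by 4.02 and Ptgfr (the prostaglandin F receptor) by 4.10, the last call being lost without ESnGFP. The part of the support cells in these decreases was not tested beyond taking the fibroblast list as a covariate, under which Igf1 lost its call.

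A few targets of signals between epithelium and mesenchyme were lower. Thbs1, thrombospondin 1 and a TGF-beta target, was at 2598, 2746 and 2679 CPM beside 230 to 770 CPM (-2.67 ± 0.34, adjusted p = 0.00127), and Ccn2, a YAP target, at 166, 445 and 288 CPM beside 21.5 to 84.6 CPM (-2.48). No tumoroid overlapped the organoids for either gene, including 655T2. Of the 30 YAP and TGF-beta target genes, 6 fell and 1 rose, so most of the list was not called. The rise was lost once any 1 organoid was left out.

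Of 27 WNT pathway genes, 5 fell and 1 rose, the rise being lost once any 1 organoid, or 654T1, 646T1, 648T1 or 648T3, was left out. Apcdd1, a WNT inhibitor, went from 85.2, 115 and 90 CPM to between 3.34 and 20.6 CPM (-3.43 ± 0.49). Lgr5, the receptor of R-spondins, fell by 3.39 and Tnfrsf19 by 3.19 on the log2 scale, both from at most 12.7 CPM. Of 14 Hedgehog genes, 3 fell and 0 rose, also 0 at an unadjusted p below 0.05 and by DESeq2. Ptch1, the Hedgehog receptor, was at 83.4, 97.6 and 81.6 CPM beside 23 to 56.2 CPM (-1.31 ± 0.25), and Gli1, the pathway's transcription factor, at 7.22 to 17.8 CPM beside at most 2.91 CPM (-3.50). Hhip was called as lower (-4.26) but not with the offsets (adjusted p = 0.0741), nor once any 1 culture other than 655T2 was left out. Without ESnCre 1 gene of the list fell, and Gli1 was called neither there nor with the fibroblast list as a covariate. The summed list was highest in 655T2 (636 CPM) and lowest in 655T1 (117 CPM), as the fibroblast list was, and stood at 282 to 413 CPM in the organoids. Of 28 integrin and laminin genes 4 fell, with Lama2 (-3.50) and Itga8 (-2.46) the largest, and 0 rose, with 1 higher at an unadjusted p below 0.05 and 2 by DESeq2. Without ESnGFP or ESpCreA 2 fell. Of 16 Notch genes 2 rose (12.5%, beside 12.7% of all genes tested), among them Lfng, the Notch glycosyltransferase (2.23). In that list 0 fell, also by both other counts. Its count of rises was 1 once any 1 organoid, 654T1 or 646T1 was left out and 5 without 655T2.

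In the EGFR pathway, 5.56% of the ERBB receptor and ligand genes and 14.8% of the ERK target genes were called higher, beside 12.7% of all genes tested. Called lower were 5.56% and 3.7%, beside 9.07% of all. The human transgene was not analysed here, as only mouse genes are annotated. Mouse Egfr was at 75.8, 48.9 and 32.7 CPM in the organoids and 2.48, 19.6 and 54.6 CPM at the lowest, median and highest tumoroid, with 655T2 the highest (-1.19, adjusted p = 0.338). Of 18 ERBB receptor and EGF-family ligand genes, 1 was called higher (Egf, 2.48) and 1 lower (Tgfa, which fell by 0.91). Tgfa was at 60.9 to 67.7 CPM in the organoids and at 23.8 to 47.8 CPM in the tumoroids, with no overlap. Egf was not called once any 1 organoid, 655T1 or 646T1 was left out, and Tgfa not without ESnGFP, while without 655T2 3 genes were lower. Of 27 ERK feedback and ETS target genes, 4 rose and 1 fell (Spry4, -0.97, named after its value was seen). The 4 were Myc, Etv4, the ERK phosphatase gene Dusp5 (1.21) and the ephrin receptor gene Epha2 (1.21), of which Epha2 lost its call with the offsets (adjusted p = 0.083) and once any 1 culture other than 655T2 was left out. Without ESnGFP or ESnCre 2 rose, Dusp5 not among them, and without 655T1 7 rose. Of 17 other receptor tyrosine kinase genes, 3 rose and 3 fell. Met, the hepatocyte growth factor receptor, was at 266, 232 and 251 CPM beside 84.3 to 121 CPM (-1.30 ± 0.14, adjusted p = 0.000613), and Ntrk2 fell by 2.92. The count of rises was 0 once any 1 organoid was left out and 1 without 648T1 or 648T3.

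Gut and liver endoderm genes, the setting in which Gata4 is best known, gave 4 higher and 1 lower of 18 tested. Afp, alpha-fetoprotein, was at 4.16, 2 and 3.71 CPM in the organoids and at 4.02, 17.9 and 26.4 CPM at the lowest, median and highest tumoroid (2.38 ± 0.55, adjusted p = 0.0156). Onecut2, a liver and endocrine factor, was at 0.802 to 1.66 CPM beside 1.51 to 55.9 CPM, low in 654T1 and 655T2 and at 22.7 CPM or more in the other 4. Tff1, a gastric peptide, had at most 4 reads in an organoid library and was at 0.124 to 21.4 CPM in the tumoroids, the highest being 648T3. None of the 3 was called once any 1 of the 3 organoids was left out (adjusted p from 0.0537 to 0.131), and Onecut2 was also not called without 655T1, 646T1, 648T1 or 648T3. Of 13 oncofetal genes 1 rose (Sox4, 1.46) and 2 fell, H19 among them (-2.11). The shares were 7.69% and 15.4%, beside 12.7% and 9.07% of all genes tested. The lower count was 1 without ESnGFP or ESpCreA and 0 without ESnCre, and 1 without 654T1, 655T1, 648T1 or 648T3.

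Metabolic and stress lists beyond those of growth had called shares near or below those of all genes tested (12.7% higher and 9.07% lower). The largest share called higher among them was 15.2%, in the glycolysis and hypoxia genes. Of 33 glycolysis and hypoxia genes, 5 rose, among them Eno1 (1.22) and Pkm (0.97, not called with the offsets, adjusted p = 0.0729), and 1 fell. Without ESnGFP 2 rose and without ESnCre or ESpCreA 0 rose, Eno1 included, and Pkm was called in none of the 3 fits. Of 32 NRF2 target and glutathione genes, 3 rose, with Txnrd1 at 1.03 and G6pdx at 0.88, and 0 fell, with 1 lower at an unadjusted p below 0.05 and 0 by DESeq2. Here 0 rose without ESnCre, 1 without ESpCreA and 10 without 655T2. Of 31 cholesterol and fatty acid synthesis genes, 1 rose and 3 fell, with 0 and 0 without ESnGFP and 0 and 1 without ESnCre or ESpCreA. Scd1, the stearoyl-CoA desaturase that supplies lipid for surfactant, was at 25730, 16950 and 16420 CPM in the organoids and 1987 to 8420 CPM in the tumoroids (-2.09 ± 0.44, adjusted p = 0.0107), with no overlap. Of 18 early response and heat shock genes, 1 rose (Hspa1b, 2.65, not called once any 1 organoid was left out) and 1 fell. Of 27 genes of epithelial to mesenchymal transition and adhesion, 1 rose (Krt18) and 0 fell, also 0 lower at an unadjusted p below 0.05 and by DESeq2, and without 655T2 9 rose.

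Genes of the interferon response and of antigen presentation were not called. Of 34 interferon-stimulated genes, 18 MHC class I presentation genes, 8 MHC class II genes and 20 neutrophil chemokine and IL-1 genes, 0 were called in either direction. At an unadjusted p below 0.05 the higher and lower counts were 0 and 1, 0 and 1, 0 and 0, and 1 and 1, and by DESeq2 1 and 0, 0 and 0, 0 and 0, and 0 and 0. Ifit3, an interferon-stimulated gene, varied within both groups, from 32.8 to 255 CPM in the organoids and from 9.62 to 114 CPM in the tumoroids (-1.53, adjusted p = 0.235). Cd74, the MHC class II invariant chain, was at 1002 to 1106 CPM beside 104 to 1740 CPM (-0.25, adjusted p = 0.808). Markers of other cell types that the cultures could hold were low. Of the 20 immune cell genes listed 9 were abundant enough to be tested (2 higher, 0 lower), of 18 endothelial genes 10 (1 higher, 0 lower), of 20 multiciliated genes 12 (0 higher, 1 lower) and of 14 neuroendocrine genes 3 (1 higher, 0 lower), each 0 here being 0 also at an unadjusted p below 0.05 and by DESeq2. The immune, endothelial and neuroendocrine rises were lost once any 1 organoid was left out. The summed immune list stood at 448 to 625 CPM in the organoids and 147 to 543 CPM in the tumoroids, and the endothelial list at 165 to 209 and 117 to 303 CPM.

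Most transcripts of the mitochondrial genome were lower in the tumoroids. Of 13 such genes 8 fell and 1 rose (median -1.04), and the list summed to 30100 to 54400 CPM in the organoids and 15500 to 27200 CPM in the tumoroids. The gene mt-Nd4l was at 394, 720 and 654 CPM beside 51.2 to 125 CPM (-2.68 ± 0.28), while mt-Co2 rose from 30.5, 58 and 66.5 CPM to between 90.9 and 211 CPM (1.61 ± 0.34). With the offsets 4 fell and 1 rose, as was also found without ESnCre or ESpCreA. Of the remaining largest decreases, Atp2a3 (a calcium pump) fell by 4.77, Sstr2 (a somatostatin receptor) by 4.18, Tmem30b (a flippase subunit) by 4.12 and C6 (complement C6) by 4.28 on the log2 scale, the last not called without ESnGFP or with the fibroblast list as a covariate.

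The sex-linked genes did not match between the groups. Xist, which silences the second X chromosome in females, was at 144, 133 and 70.5 CPM in the organoids and at 3.31 to 17.4 CPM in the tumoroids (-3.81 ± 0.49, adjusted p = 0.00132). Ddx3y, on the Y chromosome, was at 52.2 to 67 CPM in the organoids and at 0.286 to 45.1 CPM in the tumoroids (-1.21, adjusted p = 0.371). Both genes were thus high in every organoid culture, and tumoroid 655T1 was low in both (4.06 and 0.286 CPM). Cultures of both groups were grown with support cells. The part of sex in the differences above was not tested.

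Whether the difference between tumoroids and organoids depended on AT2 or BASC origin was asked with an interaction term, for which the BASC side held a single organoid culture. No gene passed (0 of 16260, 0%), with 106 at an unadjusted p below 0.05 and 11 called by DESeq2. Within AT2 cultures alone (3 against 2) edgeR called 0 of 16000 genes, with 3139 at an unadjusted p below 0.05 and 2532 called by DESeq2. Within BASC cultures alone (3 against 1) it called 1 of 17357, with 2040 at an unadjusted p below 0.05 and 581 called by DESeq2.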

How the data were processed

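The 9 alveolar cultures were taken from the sample labels. The authors trimmed reads with Trimmomatic 0.39 and deposited expected counts per gene estimated by RSEM 1.3.2 (STAR 2.6.1d is also listed in the submitters' processing notes) on GRCm38 transcripts. The authors also deposited TPM, used here only beside the cultures outside the comparison. Of 46603 genes in each table, 46091 were matched to GENCODE vM21. Of these expected counts, rounded to whole numbers, those passing filterByExpr (16260 genes) were fitted with TMM factors and edgeR's quasi-likelihood test (edgeR 4.0.16, R 4.3.3), without covariates. A gene was called where its p value, adjusted over all genes tested by Benjamini-Hochberg, was below 0.05. Every p value is 2-sided. Fold changes are log2 tumoroid over organoid, and errors are SE of these, computed as the fold change divided by the square root of F. CPM carry the TMM factors, and the log2 CPM of the principal components and list levels used a prior count of 2. Total counts were 15327265 to 97191624, and intervals cover counting error only.

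The members and lists were chosen with earlier results of these data known. Named genes were Gata4, Tfap2b, Sftpc, Col1a1, Trp53, Egfr, Xist and Ddx3y, the 10 largest changes in each direction among called protein-coding genes averaging 3 or more in log2 CPM, with no overlap of the groups and the same call with GC and length offsets, up to 3 called genes of each of 43 hand-written lists, and any member of the AT2, GATA and AP-2, lung factor, PRC2, ERBB and MYC network lists. Not all genes covered by it are printed. Lists carry no test. "By DESeq2" means the Wald test of DESeq2 1.42.0 at the same threshold. Offsets were smooth curves on transcript GC content, or on GC content and length, fitted per library. The other alternatives were DESeq2's size factors and upper-quartile factors in edgeR, no filter, at least 10 counts in every sample, thinning to the smallest library, origin or the fibroblast list as a covariate, AT2 or BASC cultures alone, Ad-Cre organoids alone, 1 tumoroid for each title number, a test against a fold of 1.5 and each culture left out. The code was tested on simulated counts of this design.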

Additional observations from a re-analysis of the deposited data

Results flagged for a closer look

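Among the named genes, 5 had 1 tumoroid set apart from the other 5 by a gap that was a large share of the group's range on the log2 CPM scale (Dixon's ratio above its 95% critical value, which chance passes in about 1 group in 20). Afp was low in 655T2 at 4.02 CPM (ratio 0.639). Ddx3y was low in 655T1 at 0.286 CPM (ratio 0.703). Eme1 was low in 654T1 at 2.64 CPM (ratio 0.646). Rrm2 was high in 655T1 at 113 CPM (ratio 0.65). Scgb3a2 was high in 648T1 at 0.449 CPM (ratio 0.73), with the other 5 at or close to 0. These came from 113 genes examined.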

How the results depend on the processing

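No paired analysis was possible because the labels give no replicate numbers shared between the tumoroids and the organoids. The main counts were 2060 higher and 1475 lower genes. Leaving out 1 culture at a time gave 831 to 2592 higher and 620 to 1892 lower genes, with 872 and 666 without ESnGFP (which is also the fit to Ad-Cre organoids alone), 831 and 620 without ESnCre, 1012 and 711 without ESpCreA, and 2592 and 1892 without tumoroid 655T2. AT2 cultures alone gave 0 and 0, and BASC cultures alone 0 and 1, with fewer samples. A test against a fold of 1.5 gave 635 and 404. The lower count was 967 with GC offsets and 956 with GC and length offsets. The other alternatives left both counts within 1.5 times. The interaction count of 0 became 3 without a filter and 11 by DESeq2. Over the 113 named genes and their alternatives, 2220 values kept direction and side of the threshold, 448 lost the call, 5 gained it and 15 changed sign, all of the last in uncalled genes. Sftpc was -0.028 without a filter, -0.14 and -0.33 with GC and with GC and length offsets, -0.75 in BASC cultures, -1.27 with the fibroblast covariate, and -0.40 to 0.24 with 1 culture left out (lowest without 654T1, and -0.09 without 655T1). Sftpb was -0.069, -0.15 and -0.60 with the 2 kinds of offsets and the fibroblast covariate. With that covariate Cebpa was -0.34, Col1a1 0.60 and Egfr 0.23, Cd74 was 0.21 in AT2 cultures and Nkx2-1 was -0.28 to 0.087 with 1 culture left out, the highest without 655T2. The cause was not tested. Gata4 had at most 23 counts in an organoid library, although the organoid libraries were the deeper ones, so its fold change rests on few organoid counts.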
